A study of Mus musculus with 2 samples.

Results

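The genes followed here encode proteins that give the cell nucleus its internal layout: the lamin B receptor gene Lbr, the A-type lamin gene Lmna, the B-type lamin genes Lmnb1 and Lmnb2, the heterochromatin protein genes Cbx1, Cbx3 and Cbx5, and the high mobility group box genes Hmgb1 and Hmgb2. They were taken by symbol, and all 9 were present among the 32285 genes measured in each library. The samples were mouse retinas dissociated to single cells and profiled by droplet RNA sequencing. Mice lived either under short-wavelength light or under white light of the full spectrum. In both, exposure began at postnatal day 14 and lasted 2 weeks. There was 1 library per condition, so comparisons of light carry no replicate. The labels name all cells of the retina as the source, and give no strain, genotype, sex or number of pooled animals.

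Most cells keep compact, silent chromatin against the nuclear envelope, where the lamin B receptor and the A-type lamins hold it in place. Mouse rods are known for an inverted nucleus, in which heterochromatin collects in the centre and active chromatin lies at the rim, an arrangement that forms during postnatal maturation. Lamin B receptor is an inner membrane protein that binds B-type lamins and heterochromatin protein, and it also has sterol reductase activity. The Cbx genes listed encode the beta, gamma and alpha forms of heterochromatin protein, which bind methylated histone tails. The high mobility group box proteins bend DNA and are abundant in chromatin, and Hmgb2 is best known from dividing and immature cells. All values below are RNA levels, and protein and nuclear layout were not measured.

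The short-wavelength library held 16106 cell barcodes and 51681469 unique molecular identifiers (UMIs, each standing for 1 captured RNA molecule), and the white-light library held 5707 barcodes and 20952589 UMIs. The libraries shared 26 barcode sequences. Cells were gated by the summed UMIs of marker lists, which gave 15053 short-wavelength and 5156 white-light rods, 320 and 99 cones, 166 and 53 bipolar cells, and 91 and 32 Müller glia, the supporting glia of the retina. Rods were the shallowest class, with medians of 2391 and 2752.5 UMIs per cell, against 6406 and 6786 in cones. Paired values of a class are those of its short-wavelength and its white-light cells. Outside the gate, 12 of 12 further bipolar genes were lower in rods than in bipolar cells at an adjusted p under 0.05. So were 12 of 12 further Müller genes in rods against Müller glia. Of all genes tested, 30.8% were lower in rods than in bipolar cells and 29.3% lower than in Müller glia. The lists were chosen with earlier results of these data known, so these counts describe the gates and do not test them. In CPM, the usual count scaled to a common total number of UMIs per class, the 8 rod markers summed to 24079 and 25483 CPM in rods, and still to 6588 and 6347 in cones, 3616 and 3440.5 in bipolar cells and 4089 and 3611 in Müller glia. Rod marker UMIs were thus present in the droplets of every other class, and their level is set beside the results below.

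Levels are CPM of the summed UMIs of a class in a library, scaled by edgeR's trimmed mean of M values (TMM-scaled CPM). Rods were compared with each class by edgeR's quasi-likelihood test on 8 sums, those of 4 classes in 2 libraries, with library as a term and Benjamini-Hochberg adjustment over 11466 genes. A difference was called at an adjusted p under 0.05. The 2 libraries are the only replicates of a class, and no label says that either stands for separate animals. A p-value rests on the spread between these 8 sums, with the spread of each gene drawn toward that fitted over all genes. The SE of a log2 difference comes from the same test. Neither can be taken as a measure of spread between animals. Of the 9 genes, 8 passed the filter on low counts, and Lmna did not.

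The tether gene Lbr was measured at overlapping levels in the 4 classes. It stood at 22.9 and 23.4 CPM in rods, against 21.4 and 17.2 CPM in cones, 19.7 and 17.1 CPM in bipolar cells and 25.1 and 17.1 CPM in Müller glia. The order of the classes could not be told from counting error, and the white-light Müller glia value rested on 4 UMIs. The log2 difference of Lbr was 0.19 ± 0.22 (SE) for rods minus cones, 0.29 ± 0.29 for rods minus bipolar cells and 0.034 ± 0.37 for rods minus Müller glia, with adjusted p-values of 0.506, 0.421 and 0.947. No difference in Lbr was called, which does not show that the classes have the same level. At least 1 Lbr UMI was held by 1034 short-wavelength and 411 white-light rods. When rods were compared with the mean of the other classes without the filter on low counts, Lbr was called higher in rods, with a log2 difference of 0.48 and an adjusted p of 0.0286, where the median over all genes was itself 0.59.

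Lmna, which encodes lamins A and C, was close to the limit of detection in rods. Its rod sums held 13 and 6 UMIs, or 0.269 (95% Poisson interval 0.143 to 0.460) CPM and 0.316 (95% Poisson interval 0.116 to 0.687) CPM. No rod held more than 1 of them. In bipolar cells Lmna had 16 and 2 UMIs, or 15.0 (95% Poisson interval 8.58 to 24.4) CPM and 4.90 (95% Poisson interval 0.593 to 17.7) CPM. The short-wavelength bipolar UMIs came from 14 of 166 cells, with at most 3 in a cell. Cones had 5 and 0 UMIs and Müller glia 1 and 1, so those levels are not resolved at this depth, and the 0 in cones allows up to 5.30 CPM by its 95% Poisson interval and 4.31 CPM by a limit of 3 counts. The rod intervals lay below the bipolar interval in the short-wavelength library, and the interval of the white-light bipolar sum reached down to 0.593 CPM, inside the rod interval. With the filter on low counts left out, Lmna was lower in rods than in bipolar cells by edgeR's quasi-likelihood test, with a log2 difference of -4.92 and an adjusted p of 2.17e-07. Against cones and Müller glia the adjusted p-values of Lmna in that fit were 0.188 and 0.301, and against the mean of the 3 classes the log2 difference was -3.30 with an adjusted p of 0.00390. With no limit on rod-marker share in the other classes Lmna passed the filter, and it was called lower in rods than in cones (log2 difference -2.63, adjusted p = 0.00965) and bipolar cells (-5.29, adjusted p = 4.52e-08), and not than in Müller glia (adjusted p = 0.144). The rod level of Lmna was 1.79% and 6.45% of its bipolar level, and the 12 bipolar genes outside the gate stood in rods at 0.149% to 13.0% of theirs, a range that holds both Lmna values.

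The RefSeq promoter windows of these genes, 250 bases before to 50 bases after an annotated start on GRCm38.p6, are printed for Lbr and Lmna because these are the tether genes whose rod levels are described above. Capitals mark CCAAT or its reverse complement ATTGG, a common promoter element bound by the factor NF-Y, and TAATCC or its reverse complement GGATTA, known as a site of the photoreceptor factor Crx. The letters run 5′ to 3′ along the gene's strand, and Lmna has 2 windows in the table, of which the one listed first is shown. Its start lies 6604 bases inside the Lmna gene body of the GENCODE annotation, and that of Lbr 645 bases inside its own, so neither is the outermost start.
Lbr (chr1:181842352-181842651, minus strand): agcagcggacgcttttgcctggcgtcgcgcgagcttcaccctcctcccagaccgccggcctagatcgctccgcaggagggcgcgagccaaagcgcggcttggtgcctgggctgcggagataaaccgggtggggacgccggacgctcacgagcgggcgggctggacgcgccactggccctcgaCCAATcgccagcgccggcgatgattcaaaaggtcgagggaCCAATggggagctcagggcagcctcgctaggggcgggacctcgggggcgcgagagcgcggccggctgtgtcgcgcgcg
Lmna (chr3:88503303-88503602, minus strand): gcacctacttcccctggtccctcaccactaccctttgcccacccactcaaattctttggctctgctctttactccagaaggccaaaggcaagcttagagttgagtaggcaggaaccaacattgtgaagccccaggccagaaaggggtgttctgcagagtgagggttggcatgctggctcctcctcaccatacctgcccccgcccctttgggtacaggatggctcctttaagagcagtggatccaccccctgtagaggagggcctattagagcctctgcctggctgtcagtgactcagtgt
The Lbr window held 2 CCAAT matches and 0 TAATCC matches, and the Lmna window shown held 0 of each. The other Lmna window, which starts 16644 bases inside the gene body, held 1 CCAAT match and 0 TAATCC matches. Of 32851 windows of 27025 genes, 37.4% held CCAAT and 7.06% held TAATCC on either strand. G and C made up 72.0% of the Lbr window and 56.3% of the Lmna window. A match is a run of letters, and no binding was measured.

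The genes of both B-type lamins, structural proteins of the lamina, were called higher in rods than in cones and bipolar cells. Lmnb1 stood at 121 and 126 CPM in rods, against 53.8 and 43.1 CPM in cones, 49.7 and 22.0 CPM in bipolar cells and 42.5 and 21.4 CPM in Müller glia. The rod values lay above those of every other class in both libraries, and the other 3 classes overlapped. Its log2 difference was 1.29 ± 0.14 for rods minus cones, 1.57 ± 0.19 for rods minus bipolar cells and 1.79 ± 0.25 for rods minus Müller glia, with adjusted p-values of 1.35e-14, 1.53e-13 and 3.30e-10. The difference from bipolar cells was 1.27 within the short-wavelength library and 2.48 within the white-light library, whose bipolar sum held 9 Lmnb1 UMIs. Lmnb2 stood at 19.6 and 17.8 CPM in rods, against 10.95 and 5.75 CPM in cones, 10.3 and 0 CPM in bipolar cells and 25.1 and 8.57 CPM in Müller glia. The rod values of Lmnb2 lay above those of cones and bipolar cells and between the Müller glia values. The white-light cone value of Lmnb2 rested on 4 UMIs. Lmnb2 was called higher in rods than in cones (log2 difference 1.02 ± 0.30, adjusted p = 0.00213) and bipolar cells (1.39 ± 0.41, adjusted p = 0.00233). Against Müller glia its log2 difference was -0.041 ± 0.41, with an adjusted p of 0.942. The call of Lmnb2 against cones was lost with DESeq2, at a log2 difference of 1.24 and an adjusted p of 0.139, and the 0 UMIs of the white-light bipolar sum allow up to 9.03 CPM by their 95% Poisson interval and 7.35 CPM by a limit of 3 counts.

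The heterochromatin protein genes differed among themselves. Cbx5, the alpha form, stood at 63.8 and 65.7 CPM in rods, against 95.7 and 113 CPM in cones, 127 and 103 CPM in bipolar cells and 104 and 129 CPM in Müller glia. Both rod values lay below every value of these 3 classes. Its log2 difference was -0.65 ± 0.13 for rods minus cones, -0.89 ± 0.15 for rods minus bipolar cells and -0.80 ± 0.19 for rods minus Müller glia, and all 3 were called lower, with adjusted p-values of 2.92e-06, 3.50e-08 and 1.70e-04. After every cell was thinned to 1000 UMIs, the calls of Cbx5 against cones and bipolar cells were lost, at adjusted p-values of 0.558 and 0.0502, and without the filter on low counts the call against Müller glia was lost, at 0.0666. Its log2 difference in that fit was -0.42, where the median over all genes was 0.87. Cbx3, the gamma form, stood at 150.2 and 164 CPM in rods, against 273 and 307 CPM in cones, 228 and 184 CPM in bipolar cells and 161 and 154 CPM in Müller glia. Cones lay apart from rods, and Müller glia lay beside them. Cbx3 was called lower in rods than in cones, with a log2 difference of -0.87 ± 0.078 and an adjusted p of 4.13e-20. It was also called lower than in bipolar cells, at -0.47 ± 0.10 and 3.48e-05, a call lost after thinning (adjusted p = 0.309) and without the filter on low counts (log2 difference -0.15, adjusted p = 0.469), where the median over all genes was 0.65. Against Müller glia the log2 difference of Cbx3 was -0.03 ± 0.15, with an adjusted p of 0.882.

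Cbx1, the beta form, stood at 140.2 and 134 CPM in rods, against 153 and 171 CPM in cones, 127 and 129.8 CPM in bipolar cells and 172 and 94.2 CPM in Müller glia. The spread between the Müller glia sums covered the values of every other class. No difference in Cbx1 was called, with log2 differences of -0.20 ± 0.092, 0.12 ± 0.12 and -0.092 ± 0.16 for rods minus cones, bipolar cells and Müller glia and adjusted p-values of 0.0679, 0.438 and 0.647. Without the filter on low counts Cbx1 was called higher in rods than in bipolar cells (log2 difference 0.41, adjusted p = 0.0101), where the median over all genes was 0.65.

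Hmgb1 and Hmgb2 went opposite ways. Hmgb2 stood at 200.1 and 245 CPM in rods, against 91.4 and 112 CPM in cones, 46.0 and 56.3 CPM in bipolar cells and 63.8 and 64.3 CPM in Müller glia. Rods lay above every other class in both libraries. Cones came next, but their 95% Poisson intervals overlapped those of Müller glia in both libraries, as did those of bipolar cells, and differences among these classes were not tested. The log2 difference of Hmgb2 was 1.13 ± 0.10 for rods minus cones, 2.12 ± 0.15 for rods minus bipolar cells and 1.74 ± 0.18 for rods minus Müller glia, with adjusted p-values of 2.08e-21, 9.11e-29 and 2.70e-16. Hmgb1 stood at 205 and 231 CPM in rods, against 339 and 392 CPM in cones, 489 and 504 CPM in bipolar cells and 348 and 296 CPM in Müller glia. Rods were lowest and bipolar cells highest in both libraries. Its log2 difference was -0.74 ± 0.073 for rods minus cones, -1.21 ± 0.08 for rods minus bipolar cells and -0.63 ± 0.11 for rods minus Müller glia, with adjusted p-values of 2.33e-17, 2.68e-30 and 6.48e-07. The call of Hmgb1 against Müller glia was lost without the filter on low counts (adjusted p = 0.172), at a log2 difference of -0.23, where the median over all genes was 0.87. Microglia, the immune cells of the retina, were too few to test, at 42 and 17 cells. They held 66 and 18 Hmgb2 UMIs, or 219.6 and 133 unscaled CPM, which is of the order of the rod level, and the 9 microglia markers summed to 19.2 and 18.5 CPM in rods. Their Cbx5 rested on 5 and 3 UMIs, or 16.6 and 22.2 unscaled CPM, against 63.8 and 65.7 CPM in rods. Their Cbx3 stood at 66.5 and 118 unscaled CPM, also below the rod values.

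The promoter windows of this pair are printed because the genes are paralogs whose levels differed between the classes in opposite directions. Capitals mark the same letters as above, and Hmgb1 has 2 windows in the table, of which the one listed first is shown. Both start far inside the annotated Hmgb1 gene body, the one shown by 131432 bases.
Hmgb2 (chr8:57511593-57511892, plus strand): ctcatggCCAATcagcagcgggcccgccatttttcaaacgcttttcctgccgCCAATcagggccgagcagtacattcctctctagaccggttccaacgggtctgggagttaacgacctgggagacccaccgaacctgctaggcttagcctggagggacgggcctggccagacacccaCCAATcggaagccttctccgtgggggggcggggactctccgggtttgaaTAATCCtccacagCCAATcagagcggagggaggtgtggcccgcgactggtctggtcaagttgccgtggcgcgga
Hmgb1 (chr5:149053008-149053307, minus strand): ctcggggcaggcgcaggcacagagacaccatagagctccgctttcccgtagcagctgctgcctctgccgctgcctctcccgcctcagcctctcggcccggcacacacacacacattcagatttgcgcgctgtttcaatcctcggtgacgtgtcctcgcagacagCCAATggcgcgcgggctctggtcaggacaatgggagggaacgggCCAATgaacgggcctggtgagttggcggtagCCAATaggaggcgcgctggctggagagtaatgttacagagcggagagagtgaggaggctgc
The Hmgb2 window held 4 CCAAT matches and 1 TAATCC match, and the Hmgb1 window shown held 3 and 0. The other Hmgb1 window held 0 of each. The shares of all windows with these letters are those given above for Lbr and Lmna. Windows were matched for 8 of the 9 genes, Lmnb1 being the one not matched. Of the remaining genes, taking the window listed first, that of Cbx1 held 1 TAATCC match and those of Lmnb2, Cbx3 and Cbx5 held 0.

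On mm10 with GENCODE release M21, the protein-coding genes lie at chr1:181815335-181843046 for Lbr, chr3:88480147-88509956 for Lmna, chr18:56707813-56753424 for Lmnb1, chr10:80901203-80918245 for Lmnb2 and chr11:96789127-96808640 for Cbx1. Cbx3 lies at chr6:51470360-51483704, Cbx5 at chr15:103191544-103239816, Hmgb1 at chr5:149046702-149184489 and Hmgb2 at chr8:57511907-57515999. The annotation names 14 Hmgb1 and 8 Cbx3 pseudogenes, none of which is a row of the matrices, and the gene bodies of Lbr, Cbx1 and Hmgb1 overlap 2, 1 and 7 other annotated genes. How reads shared with such copies or neighbours were assigned is not given in the sources used here, so the absolute levels of these 4 genes are the less certain ones. Lamin A and lamin C transcripts are not separated by gene counts.

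**Figure D1:**
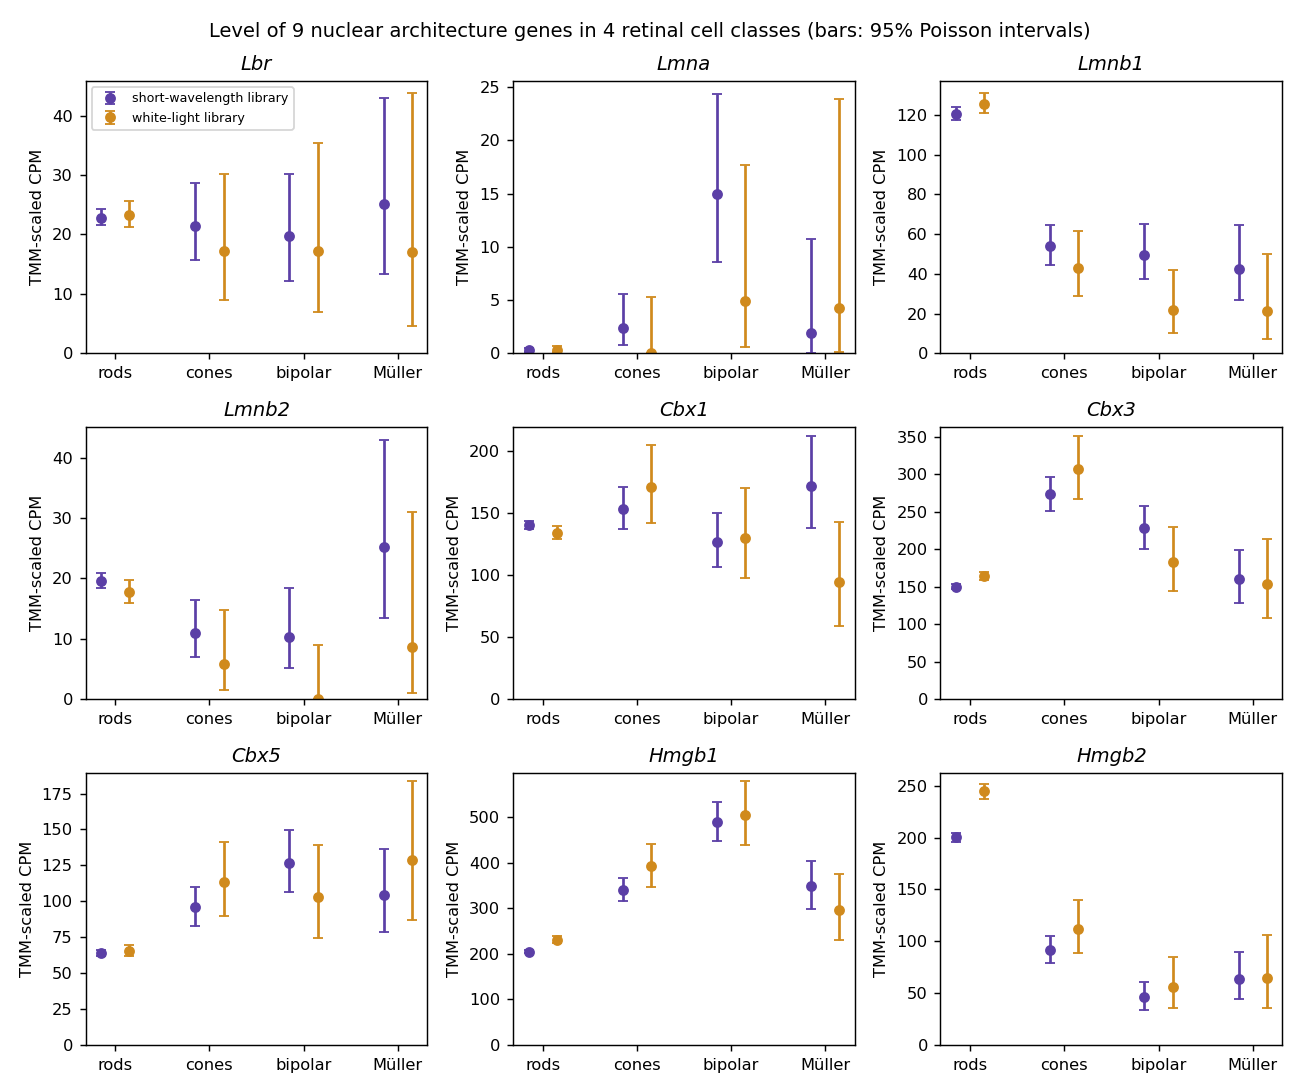
TMM-scaled CPM (vertical axes, linear from 0) of each of the 9 genes in rods, cones, bipolar cells and Müller glia, with 1 point per library and 95% Poisson intervals that cover counting error only. Lmnb1 and Hmgb2 stand highest in rods, Hmgb1 and Cbx5 stand lowest in rods, and Lbr overlaps in all classes.

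Among the 8 genes tested, 3 were called higher and 3 lower in rods than in cones, where 24.3% and 24.5% of all genes tested were. Against bipolar cells 3 were higher and 3 lower, beside 25.6% and 30.8% of all genes, and against Müller glia 2 were higher and 2 lower, beside 23.0% and 29.3%. Against the mean of the 3 classes 3 were higher and 3 lower, beside 29.1% and 29.1%. With so many genes called each way, these counts say little about the set as a whole, and the sizes for single genes carry the description. Against that mean, the log2 difference was 1.67 ± 0.09 for Hmgb2, 1.55 ± 0.12 for Lmnb1 and 0.79 ± 0.23 for Lmnb2, with adjusted p-values of 7.51e-39, 1.70e-23 and 0.00206. On the lower side it was -0.86 ± 0.062 for Hmgb1, -0.78 ± 0.10 for Cbx5 and -0.46 ± 0.075 for Cbx3, with adjusted p-values of 3.65e-27, 2.89e-11 and 3.87e-08. Lmnb2 was not called with DESeq2 (log2 difference 1.05, adjusted p = 0.0810), and Cbx3 was not called without the filter on low counts (log2 difference -0.13, adjusted p = 0.34), where the median over all genes was 0.59. DESeq2 called 35.5% of its calls in this comparison higher in rods, where edgeR's quasi-likelihood test called 49.97%, and without the filter on low counts that share was 70.5%.

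**Figure D2:**
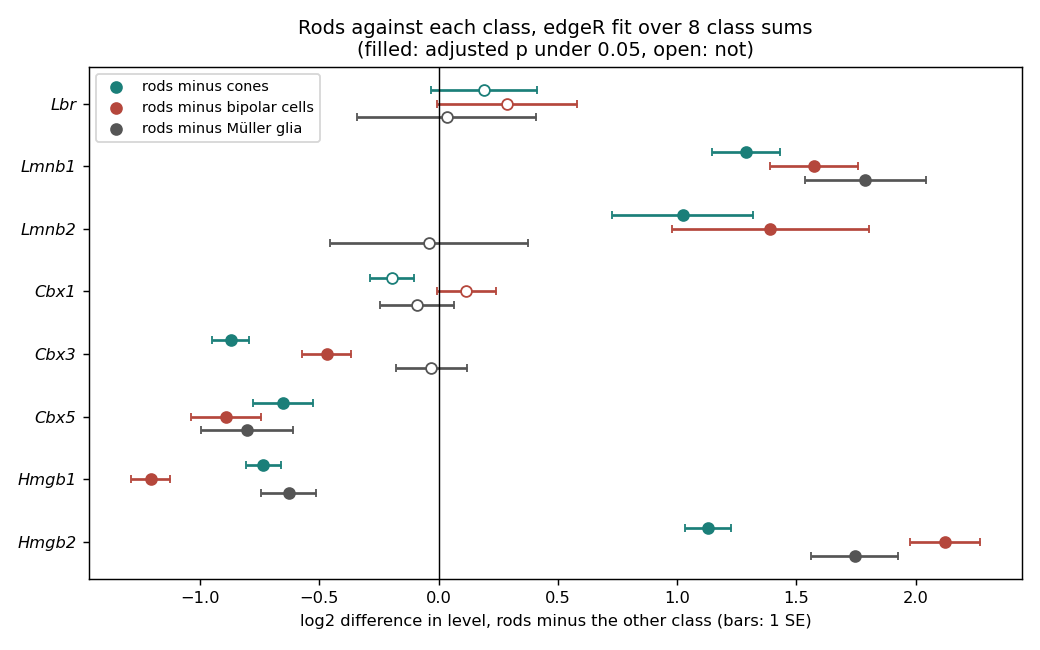
Log2 difference (horizontal axis, rods minus the other class, bars 1 SE) of the 8 tested genes, with filled points where edgeR's quasi-likelihood test gave an adjusted p under 0.05. Hmgb2 and Lmnb1 lie to the right of 0 and Hmgb1 and Cbx5 to the left of 0 in all 3 comparisons, while Lbr and Cbx1 have open points throughout.

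Since rod marker UMIs were present in all classes, the genes were set beside those markers. The 8 rod markers had a median of 19.2% and 17.0% of their rod level in cones, 14.5% and 14.3% in bipolar cells and 17.1% and 14.4% in Müller glia. Gngt1, a transducin subunit gene, was the exception in cones, at 72.6% and 72.7%. Hmgb2 stood in cones at 45.7% and 45.8% of its rod level, in bipolar cells at 23.0% and 23.0% and in Müller glia at 31.9% and 26.3%. The rod markers define the rod gate and the other classes were held under a limit on rod-marker share, so these percentages are partly set by the gates and are given as a description. Lmnb1 stood at 44.6% and 34.3% in cones, 41.2% and 17.5% in bipolar cells and 35.3% and 17.0% in Müller glia. In Müller glia of the white-light library Lmnb1 fell inside the range of the rod markers, which was 10.4% to 18.2%. A stricter gate doubled the minimum marker UMIs of every class and left out rods with 3 or more UMIs of any other marker list. It kept 8917 short-wavelength rods. With it, the log2 difference against the mean of the 3 classes was 1.78 for Hmgb2 and 1.53 for Lmnb1. With no limit on rod-marker share it was smaller, at 1.29 for Hmgb2 and 1.24 for Lmnb1, and Hmgb2 against cones was 0.73, where it was 1.13 ± 0.10 as first given. Both genes kept an adjusted p under 0.05 against each class in these fits.

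**Figure D3:**
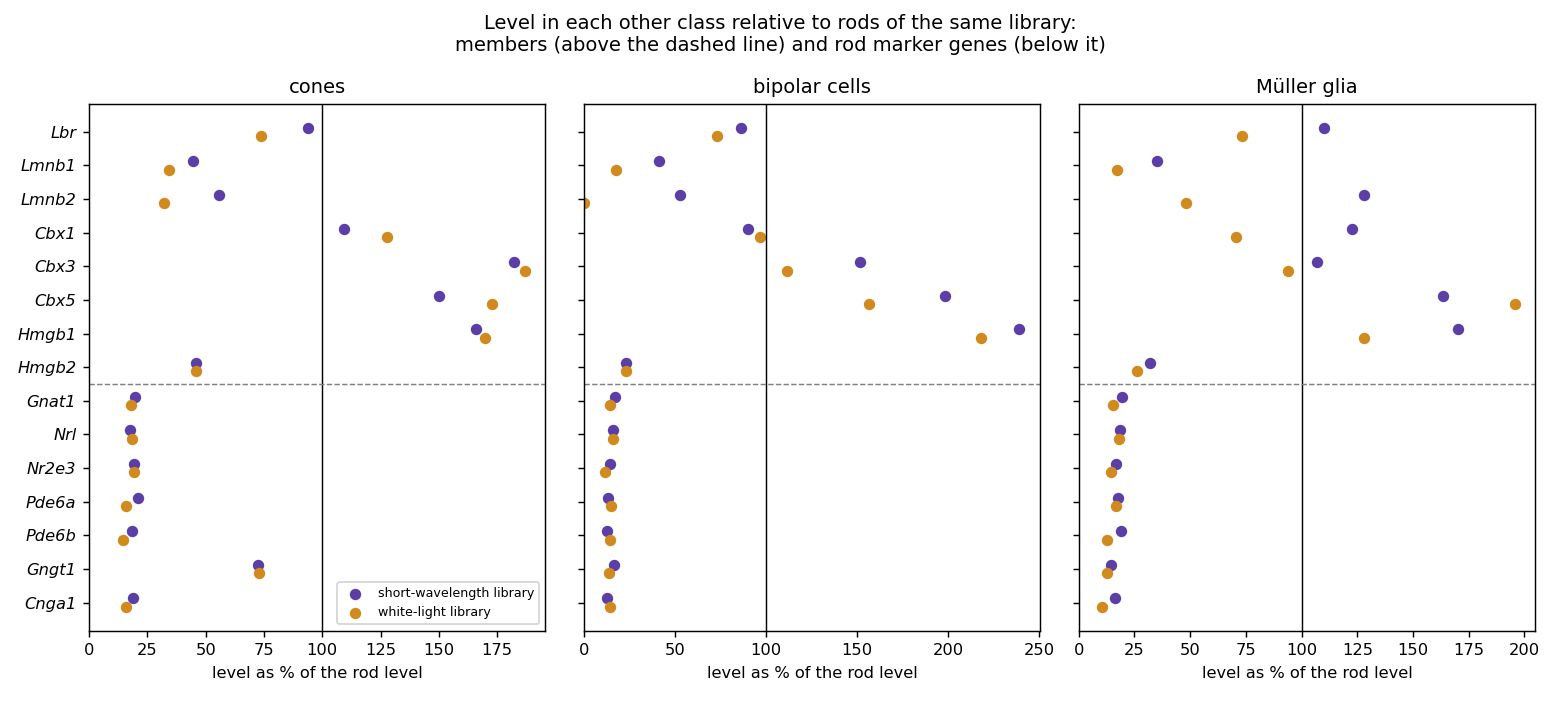
Level in cones, bipolar cells and Müller glia as a percentage of the rod level of the same library (horizontal axes, linear from 0, the vertical line at 100%), for 8 members above the dashed line and 7 of the rod marker genes below it. Rod markers cluster at low percentages in each class apart from Gngt1 in cones, Hmgb2 lies somewhat above them, and Hmgb1 and Cbx5 lie to the right of 100%.

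Across the 8 class sums, the genes whose log2 level followed Hmgb2 closest were Kpna3, an importin gene (Pearson r = 0.996), Chchd3, a gene of the mitochondrial inner membrane (0.993), and Kcnv2, a photoreceptor potassium channel subunit gene (0.989). Kcnv2 stood at 255 and 274 CPM in rods, against 104 and 96.2 CPM in cones. For Hmgb1 they were Skp1a (0.988), Bri3 (0.987) and the cyclophilin gene Ppia (0.985), each highest in bipolar cells and lowest in rods in both libraries. For Lbr they were Cog7, Tmem41b and Ascc2, with r of 0.979, 0.965 and 0.961, and for Lmna they were Cep170, Erp29 and Arhgap20, with r of 0.958, 0.955 and 0.944. The 8 points share 2 libraries and the rod marker UMIs found in every class, the Lmna points rest on 0 to 16 UMIs each, and the correlations are descriptions.

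Partners of these genes at the envelope were taken as a list of 18 genes of the nuclear envelope and of the LINC complex, which links nucleus and cytoskeleton. Against the mean of the 3 classes, 7 were called higher in rods, 2 lower and 9 were not called, with a median log2 difference of 0.15, where the median of all genes tested was -0.0011. Syne2 and Syne3 encode nesprins, which span the outer nuclear membrane. Syne2 stood at 489 and 472 CPM in rods, against 235 and 188 CPM in cones, 53.5 and 68.6 CPM in bipolar cells and 195 and 146 CPM in Müller glia (log2 difference 1.89 ± 0.073). The rod values of Syne2 lay above all others. Syne3 stood at 66.0 and 71.9 CPM in rods and 4.69 and 2.45 CPM in bipolar cells, with a log2 difference of 2.12 ± 0.18. Nrm, which encodes the inner membrane protein nurim, differed by 1.30 ± 0.22, with 39.8 and 44.7 CPM in rods and 3.87 and 4.28 CPM in Müller glia. Its levels in cones, 32.4 and 41.7 CPM, and in bipolar cells, 32.8 and 34.3 CPM, were nearer to those of rods. Zmpste24, the protease that processes prelamin A, was lower in rods than in the mean of the 3 classes, by a log2 difference of -0.52 ± 0.18. It stood at 18.3 and 17.7 CPM in rods, 19.5 and 15.8 in cones, 19.7 and 29.4 in bipolar cells and 50.3 and 25.7 in Müller glia. Tor1aip1, an inner membrane gene, was lower than that mean by -0.35 ± 0.10. It stood at 81.4 and 74.9 CPM in rods, 77.6 and 90.5 in cones, 70.3 and 61.2 in bipolar cells and 170 and 210 in Müller glia.

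Of 27 tested genes that write or read heterochromatin marks, 10 were called higher in rods, 7 lower and 10 were not called, with a median log2 difference of 0.094. Suv39h2, a histone methyltransferase whose mark the Cbx proteins bind, stood at 76.8 and 79.8 CPM in rods, against 22.9 and 23.0 CPM in cones, 14.1 and 9.80 CPM in bipolar cells and 13.5 and 12.9 CPM in Müller glia (log2 difference 2.30 ± 0.16). Kmt5c, another histone methyltransferase of pericentric heterochromatin, differed by 0.87 ± 0.15, and Cdyl, a chromodomain gene, by 0.87 ± 0.14. Mbd3, Smarca4 and Ehmt2 were lower in rods than in the mean of the other classes. Their log2 differences were -0.55 ± 0.15, -0.45 ± 0.11 and -0.43 ± 0.17. Smarca4 stood at 78.7 and 80.6 CPM in rods, beside 75.4 and 85.7 in Müller glia. It had 117 and 93.4 CPM in cones and 144 and 159 in bipolar cells. Ehmt2 stood at 25.6 and 25.0 CPM in rods, beside 26.2 and 27.3 in cones. It had 36.6 and 73.5 CPM in bipolar cells and 23.2 and 47.1 in Müller glia. Of 18 tested genes of other high mobility group proteins, linker histones and histone variants, 4 were higher, 8 lower and 6 not called, with a median of -0.41. Hmgn3, a nucleosome-binding gene, stood at 16.5 and 15.3 CPM in rods, against 140.0 and 128 CPM in cones, 567 and 465 CPM in bipolar cells and 371 and 321 CPM in Müller glia (log2 difference -4.20 ± 0.083). Its relatives Hmgn1 and Hmgn2 were higher in rods than in the mean of the other classes, by 0.999 ± 0.082 and 0.96 ± 0.062. So was the linker histone gene Hist1h1c, by 1.05 ± 0.11. Hmgn1 stood at 2136 and 1981 CPM in rods, beside 1959 and 1876 in cones. It had 1056 and 980 CPM in bipolar cells and 547 and 583 in Müller glia. H2afy2, a macro histone variant gene, and Hmgn5 were lower, with log2 differences of -2.10 ± 0.33 and -1.95 ± 0.20.

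Of 26 tested polycomb genes, taken with the rod proteins Samd7 and Samd11 that join polycomb complexes, 10 were higher in rods, 9 lower and 7 not called, with a median of 0.13. Samd11 stood at 894 and 822 CPM in rods, against 196 and 155 CPM in cones, 121 and 118 CPM in bipolar cells and 139 and 141 CPM in Müller glia (log2 difference 2.59 ± 0.066). Samd7 differed by 2.08 ± 0.10 and the polycomb gene Cbx8 by 0.89 ± 0.21. Pcgf2, Pcgf3 and Cbx6, a polycomb relative of the heterochromatin protein genes, were lower than the mean of the 3 classes. Their log2 differences were -2.82 ± 0.36, -0.99 ± 0.21 and -1.36 ± 0.14. Pcgf3 stood at 11.6 and 10.6 CPM in rods beside 11.9 and 11.5 in cones. Of 15 tested genes of cohesin, condensin and Ctcf, which fold chromatin into loops, 10 were higher, 0 lower and 5 not called, with a median of 0.42. Wapl, which releases cohesin from DNA, stood at 442 and 450.2 CPM in rods, against 239 and 234 CPM in cones, 210.1 and 174 CPM in bipolar cells and 176 and 167 CPM in Müller glia, a log2 difference of 1.15 ± 0.065. Smc4 of condensin differed by 1.12 ± 0.13 and Smc3 of cohesin by 0.55 ± 0.075. Among 10 tested regulators of rod fate and rod nuclear layout, which the gate did not use, 8 were higher and 2 lower. Esrrb, a rod nuclear receptor gene, differed by 2.64 ± 0.088. Rorb and Sall3, genes of retinal transcription factors, were lower than the mean of the 3 classes, with log2 differences of -1.13 ± 0.089 and -2.97 ± 0.9997. Rorb stood at 484 and 481 CPM in rods, above its 436 and 458 in cones. It had 1062 and 1114 CPM in bipolar cells and 2534 and 2373 in Müller glia. Sall3 stood at 0.725 and 1.47 CPM in rods, against 98.1 and 100.5 in cones. It had 3.75 and 2.45 CPM in bipolar cells and 1.93 and 0 in Müller glia. The counts stand beside 29.1% of all genes called higher and 29.1% lower, and nothing particular to a list is read from them.

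Because Hmgb2 is known from dividing cells, proliferation markers were set beside it. In rods, 1 of 20 such genes reached 20 CPM in either library, namely Pcna at 40.9 and 49.0 CPM. Mki67 stood at 0.538 and 0.474 CPM in rods and Top2a at 0.145 and 0.631 CPM. The summed level of the list was 93.1 and 105 CPM. Of 3 markers that passed the filter, 2 were higher in rods than in the mean of the other classes, namely Ccna2 and Tyms, with log2 differences of 1.44 ± 0.29 and 0.69 ± 0.27. In that comparison 29.1% of all genes were called higher, and 3 genes are too few to set against that share. Against cones 1 of the 3 was called higher and 1 lower. Tyms stood at 14.1 and 15.0 CPM in rods and 11.4 and 14.4 in cones.

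Over single rods, the dispersion index of Hmgb2 was higher than that of Lbr or Lmnb1, which had lower levels in rods. The dispersion index used here is the mean over rods of the squared deviation from the count that a rod's depth predicts, divided by that count, and it is near 1 when only counting error is present. It was 1.30 and 1.28 for Hmgb2 and 1.25 and 1.25 for Hmgb1, against a median of 1.09 and 1.11 over 7232 and 7189 genes at 20 CPM or more. Of those genes 92.9% and 88.9% had a lower index than Hmgb2, and 90.04% and 86.3% a lower one than Hmgb1. The index was 1.04 and 0.995 for Lbr, 1.08 and 1.05 for Lmnb1, 1.09 and 1.03 for Lmnb2, 1.13 and 1.14 for Cbx1, 1.17 and 1.25 for Cbx3 and 1.15 and 1.12 for Cbx5. Lmna is left out of this reading because it had 13 and 6 UMIs. After each rod was thinned to 1000 UMIs, the variance over the mean of Hmgb2 was 1.09 and 1.10 in 15046 and 4901 rods, that of Hmgb1 1.09 and 1.08, that of Cbx3 1.08 and 1.07, that of Cbx5 1.07 and 1.08, that of Lmnb1 1.03 and 1.02 and that of Lbr 1.01 and 1.01. At equal depth Hmgb2 thus stood close to Hmgb1, Cbx3 and Cbx5. Both measures grow with the level of a gene wherever its true share differs between cells. In rods Hmgb2 stood at 200.1 and 245 TMM-scaled CPM, where Lbr stood at 22.9 and 23.4. The genes were not matched for level. Neither these values nor the ranks among all genes thus order them by unevenness at equal level.

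At 1000 UMIs 12242 short-wavelength rods held no Hmgb2 UMI, 2419 held 1, 341 held 2 and 44 held at least 3. A Poisson count of the same mean puts 0.142% of rods at 3 or more, and 0.292% were there. In the white-light library 3874 rods held none, 864 held 1, 141 held 2 and 22 held at least 3, or 0.449% where the Poisson share was 0.211%. The share of rods with at least 1 Hmgb2 UMI was 18.6% and 21.0% at 1000 UMIs, against 8.15% and 10.3% of cones and 3.05% and 9.43% of bipolar cells. The bipolar shares rest on 5 and 5 cells. Without thinning, the share was 40.2% and 49.4% of rods, against 38.8% and 41.4% of the deeper cones and 24.1% and 26.4% of bipolar cells. Most rods showed no Hmgb2 molecule at this depth, which does not show that they lack it.

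Rods were then ordered by the share of their UMIs from Malat1, a nuclear noncoding RNA whose share moves with the balance of nuclear and cytoplasmic RNA, and divided into quintiles. Levels here are UMIs of a gene over all UMIs of the quintile, as unscaled CPM. From the lowest to the highest quintile, Hmgb2 had 251, 216, 207, 199.97 and 195 CPM in short-wavelength rods and 303, 268, 256, 250.2 and 229.6 in white-light rods. Hmgb1 had 303, 222, 197, 189 and 186 in short-wavelength rods and 336, 268, 234, 207 and 205 in white-light rods. Cbx3 had 237, 157, 146, 135 and 131 in short-wavelength rods and 271, 175, 157, 147 and 148 in white-light rods. These 3 genes were lowest or nearly so in the quintile richest in Malat1, in both libraries. Lmnb1 went the other way, with 105, 131, 132, 134 and 139 in short-wavelength rods and 100.5, 135, 131, 142 and 149.6 in white-light rods. The highest quintile over the lowest was 1.33 (1.22 to 1.45) for Lmnb1 in short-wavelength rods (95% counting interval) and 1.49 (1.29 to 1.73) in white-light rods, and it was 1.28 (1.13 to 1.45) and 1.66 (1.35 to 2.05) for Cbx5. For Hmgb2 it was 0.778 (0.729 to 0.831) and 0.757 (0.687 to 0.835), for Hmgb1 0.615 (0.577 to 0.655) and 0.608 (0.551 to 0.671), and for Cbx3 0.552 (0.512 to 0.595) and 0.548 (0.489 to 0.614). For Lbr both intervals held 1, at 1.02 (0.831 to 1.24) and 1.04 (0.737 to 1.48). Over genes at 20 CPM or more the median of this ratio was 1.11 and 1.18.

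**Figure D4:**
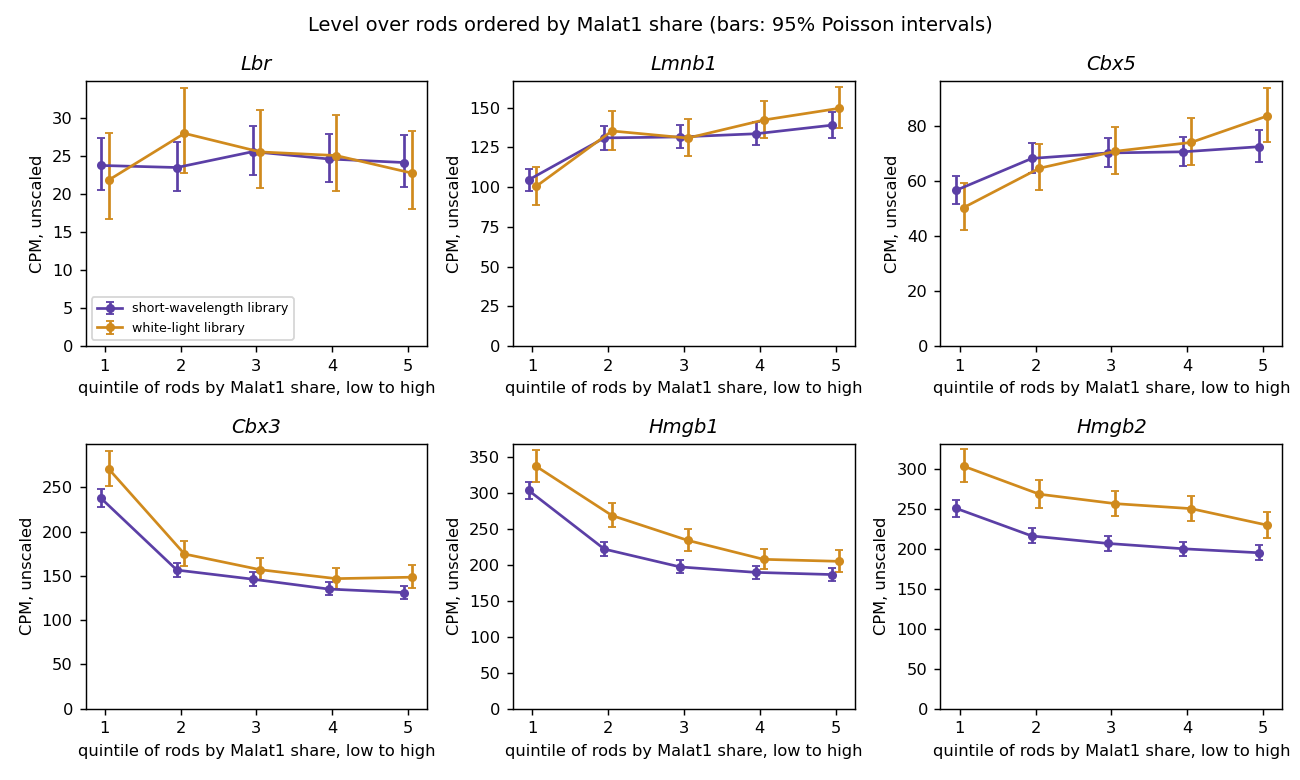
Unscaled CPM (vertical axes, linear from 0, with 95% Poisson intervals) of 6 genes in quintiles of rods ordered by Malat1 share from low to high (horizontal axes), 1 line per library. Cbx3, Hmgb1 and Hmgb2 decline and Lmnb1 and Cbx5 climb toward the quintile richest in Malat1, and the intervals of Lbr overlap throughout.

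The same genes were followed over quintiles by the share of UMIs from the 8 rod markers. From the lowest to the highest quintile, Hmgb2 had 155, 191, 211, 248 and 264 CPM in short-wavelength rods and 212, 235, 253, 294 and 310.4 in white-light rods, so that it was higher where the rod markers took a larger share. The highest quintile over the lowest was 1.70 (1.59 to 1.82) and 1.46 (1.33 to 1.61) for Hmgb2, 1.80 (1.69 to 1.92) and 1.83 (1.66 to 2.02) for Hmgb1 and 2.18 (2.02 to 2.35) and 2.25 (2.00 to 2.53) for Cbx3. Lmnb1 was lower there, at 0.754 (0.692 to 0.822) and 0.653 (0.567 to 0.751), and Cbx5 stood at 0.778 (0.689 to 0.878) and 0.708 (0.576 to 0.868). Over genes at 20 CPM or more the median of this ratio was itself 0.855 and 0.817. Of those genes 34.5% and 26.5% had a lower ratio than Lmnb1, and 38.6% and 35.6% a lower one than Cbx5. By UMIs per cell, Hmgb2 in the deepest quintile over the shallowest was 0.872 (0.816 to 0.933) in short-wavelength rods and 1.003 (0.899 to 1.12) in white-light rods, and by mitochondrial share it was 1.28 (1.199 to 1.36) and 1.198 (1.09 to 1.32). The median over genes was 1.02 and 1.05 by UMIs per cell and 0.873 and 0.846 by mitochondrial share. The rods of a quintile come from 1 library and are not replicates, and the part that nuclear RNA, mitochondrial RNA and depth have in the spread of Hmgb2 was not tested.

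Rods with at least 2 Hmgb2 UMIs of 1000 numbered 385 in the short-wavelength library and 163 in the white-light library. They were set against the 12242 and 3874 rods with none, at the same thinned depth. The other box gene Hmgb1 was higher in them, by a ratio of 1.26 (1.02 to 1.53) in the short-wavelength library (95% counting interval) and 1.22 (0.899 to 1.63) in the white-light library, the second interval reaching below 1. Of 6624 genes, 39 were higher with an interval above 1 in both libraries and 34 lower with an interval below 1. How many would pass from counting error alone was not computed. The intervals cover counting error only and are not adjusted for the number of genes ranked. Rods of 1 library are not replicates, and the genes named next are the extremes of that ranking. On the higher side stood Sub1, a gene of a transcription coactivator, at 1.58 (1.17 to 2.08) and 1.77 (1.16 to 2.59), the polyubiquitin gene Ubb at 1.37 (1.26 to 1.49) and 1.27 (1.12 to 1.43), and the outer segment gene Rom1 at 1.204 (1.13 to 1.28) and 1.23 (1.12 to 1.35). Atp5j2 of the mitochondrial ATP synthase stood at 1.41 (1.12 to 1.76) and 1.75 (1.24 to 2.39). On the lower side stood the scaffold genes Dlg2 at 0.789 (0.716 to 0.867) and 0.723 (0.617 to 0.843) and Magi2 at 0.833 (0.752 to 0.921) and 0.780 (0.664 to 0.911). The ciliary gene Rpgrip1 stood at 0.868 (0.818 to 0.919) and 0.790 (0.714 to 0.872), Pdzph1 at 0.855 (0.801 to 0.911) and 0.809 (0.727 to 0.898) and Rictor, of a signalling kinase complex, at 0.639 (0.435 to 0.905) and 0.471 (0.224 to 0.873). Lmnb1 was 0.946 (0.692 to 1.26) and 0.907 (0.550 to 1.42), so that no difference was detectable. The Malat1 level was 52600 and 47742 CPM in rods with at least 2 Hmgb2 UMIs, against 55899.8 and 50706 in rods with none, and its part in these ratios was not tested. The proliferation list summed to 114 and 123 CPM in rods with at least 2 Hmgb2 UMIs, which rest on 44 and 20 UMIs, against 101 and 106 in rods with none.

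Short-wavelength rods had less Hmgb2 than white-light rods, at 200.1 TMM-scaled CPM, against 245 CPM. The ratio was 0.818 (0.790 to 0.847), with an exact conditional binomial interval at 95% that covers counting error only. With 1 library per condition there is no p-value, and light cannot be told apart from anything else that differed between the libraries. A gene was called when its ratio passed 1.2-fold with an interval that excluded 1. In rods 1 of 8 members with enough UMIs was called lower, Hmgb2, and 0 were called higher, where 5.27% and 4.21% of 12979 genes were. Hmgb1 had a ratio of 0.886 (0.855 to 0.918) and Cbx3 of 0.914 (0.876 to 0.954), both below 1 and within 1.2-fold. The ratio was 0.978 (0.875 to 1.09) for Lbr, 0.959 (0.915 to 1.01) for Lmnb1, 1.10 (0.974 to 1.25) for Lmnb2, 1.05 (1.0002 to 1.10) for Cbx1 and 0.971 (0.909 to 1.04) for Cbx5. Lmna, with 13 and 6 UMIs, had a ratio of 0.852 (0.302 to 2.73), too wide to place. The median over all genes was 1.001.

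The rods were also divided by 1 share at a time, which does not match the libraries in other respects. In 5 parts of rods cut at the same Malat1 shares in both libraries the Hmgb2 ratio lay between 0.801 and 0.893, with a median of 0.856, and in 5 parts by rod-marker share between 0.728 and 0.872. It was below 1 in 5 of 5 parts of either kind, as was that of Hmgb1, while Cbx3 was below 1 in 3 of 5 parts by Malat1 share and 5 of 5 by rod-marker share. After thinning the Hmgb2 ratio was 0.875, and in the 3 middle quintiles of rod-marker share it was 0.850. The Malat1 median, the thinned value and the middle-quintile value all fall short of 1.2-fold. Thinned Cbx5 was past it instead, at 0.794. Malat1 share differed between the libraries, with a median in the lowest quintile of rods of 3.68% in the short-wavelength library and 2.64% in the white-light library. In the same rods 4 of 11 Müller genes outside the gate were called lower and 0 higher, and the 8 rod markers summed to 24079 CPM in short-wavelength rods and 25483 CPM in white-light rods. The 4 erythrocyte markers, a sign of blood RNA, summed to 46.4 CPM in short-wavelength rods and 89.4 CPM in white-light rods. The part of these differences between the libraries in the Hmgb2 ratio was not tested.

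In the other classes the counts were too small to resolve such a difference. The Hmgb2 ratio was 0.816 (0.624 to 1.08) in cones, 0.816 (0.488 to 1.40) in bipolar cells and 0.993 (0.525 to 1.97) in Müller glia, each with an interval that holds 1. In cones no member was called in either direction, beside 3.9% of genes called higher and 3.82% lower. In bipolar cells Lmnb1 was called higher, at 2.26 (1.10 to 5.20), and none lower, beside 4.67% and 3.38% of genes. In Müller glia Cbx1 was called higher, at 1.83 (1.14 to 3.06), and none lower, beside 4.15% and 4.71% of genes. Those calls rest on 53 and 9 Lmnb1 UMIs and 89 and 22 Cbx1 UMIs. After thinning, 0 of 53 white-light bipolar cells held Lmnb1, which leaves no ratio to call, and the Cbx1 ratio in Müller glia was 1.51 with an interval that holds 1. Of the lists in rods, 1 of 18 other high mobility group and histone genes was called lower and 1 of 29 heterochromatin genes higher, and 0 of 18 envelope genes was called. Of 10 regulators of rod fate and nuclear layout 1 was called lower. Among 27 polycomb genes and 16 of cohesin, condensin and Ctcf 0 were called. Over all genes in rods 5.27% were called lower and 4.21% higher, and nothing particular to a list is read from these counts.

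**Figure D5:**
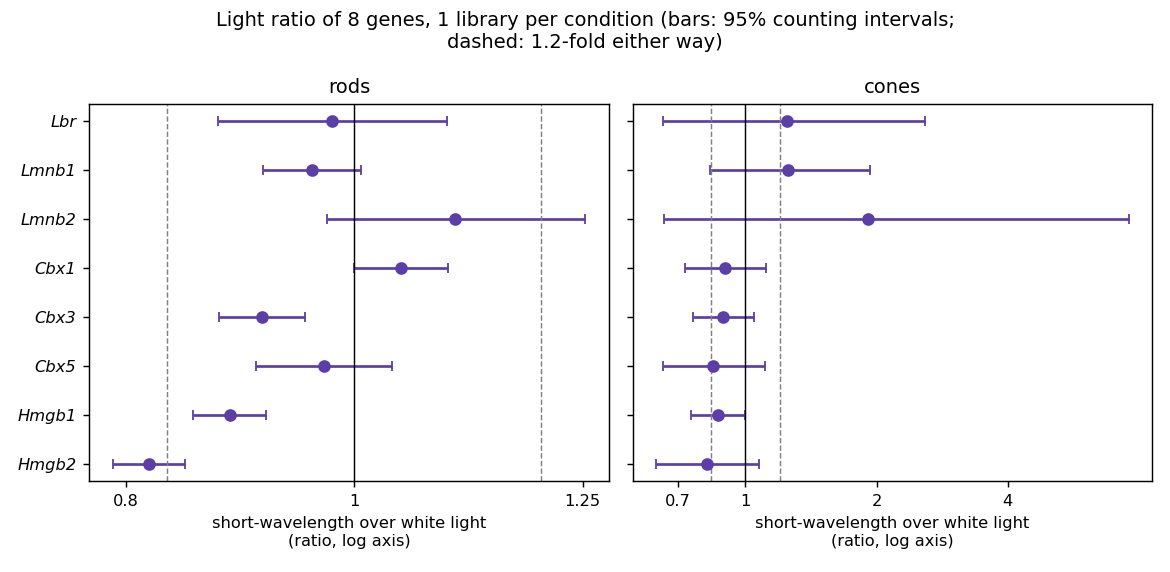
Ratio of the short-wavelength over the white-light level (horizontal axes, logarithmic) for 8 genes in rods and in cones, with 95% counting intervals and dashed lines at 1.2-fold either way. In rods Hmgb2 lies left of the dashed line at 0.818 with its interval crossing it, Hmgb1 and Cbx3 lie between that line and 1, and in cones the intervals are wide.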

How the data were processed

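Whole-retina droplet libraries gave counts of unique molecular identifiers (UMIs) per gene and cell. Per the file headers the authors deposited raw counts from Cell Ranger 9.0.0, filtered to cell barcodes, and per the submitters' processing notes the genome was mm10. The kit version, and whether introns and strand were counted, are not given in the sources used here. The 9 members and all lists were chosen with earlier results of these data known.

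A barcode was kept with 300 genes or more and a mitochondrial share of 20% or less (16095 short-wavelength, 5695 white-light). Classes were gated by minimum UMIs and genes of marker lists, with an upper limit on rod-marker share in other classes. Droplets passing several gates other than that of rods were left out of the classes. So were droplets that passed 1 such gate with a rod-marker share at or above the limit. A droplet below the limit stayed in its class even where it also passed the rod gate. Scrublet scores (scanpy 1.11.5) served as an alternative treatment of doublets, removing the highest-scoring barcodes of each library. UMIs were summed per class and library (rods 45391005 and 17919162, cones 2069435 and 690711, bipolar cells 1105897 and 418939, Müller glia 538468 and 243184). edgeR 4.0.16 (R 4.3.3) fitted class and library by its quasi-likelihood test with TMM scaling, filterByExpr and Benjamini-Hochberg adjustment over all genes tested, leaving 3 residual degrees of freedom. The library term pairs the classes of one library, since these came from the same tissue. The fit was tested on simulated data. DESeq2 1.42.0, other gates, filters, scalings and thinning to 1000 UMIs were alternatives. Counts of calls leave out the 83 gate genes. Light ratios compared 1 library per condition over genes with at least 50 UMIs, with no test, and intervals cover counting error only, since UMIs of 1 library do not measure spread between animals.

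All members are given. Of each other list, up to 3 genes per direction with the largest difference against the mean of the 3 classes are named, among those called and of one sign in both libraries. The genes most like a member are the 3 with the highest Pearson correlation of log2 (CPM + 1). Genes named for rods with 2 or more Hmgb2 UMIs are the 5 of each direction at 20 CPM or more ranked by interval in both libraries. Of these, 1 is not reported here.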

Additional observations from a re-analysis of the deposited data

Results flagged for a closer look

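Lmna was counted in droplets outside the 4 classes, with intervals above the rod level of its library. In the 42 microglia droplets of the short-wavelength library it had 9 UMIs in 5 droplets, or 29.9 CPM (13.7 to 56.8) with a 95% Poisson interval, and in those of the white-light library 1 UMI. Some droplets passed the cone gate with a rod-marker share at or above the limit. In 188 such short-wavelength droplets Lmna had 4 UMIs, or 3.17 CPM (0.863 to 8.11), and 0 in 132 such white-light droplets. Others passed the bipolar gate with such a share. In 31 of these white-light droplets Lmna had 3 UMIs, or 20.2 CPM (4.17 to 59.2), and 0 in 28 such short-wavelength droplets. These levels are unscaled and cover counting error only.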

How the results depend on the processing

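Of 559 values for single genes under an alternative, 511 kept their direction and side of the threshold or stayed within their error, 9 lost a call, 2 gained one, 36 moved with no test and 1 was counted as changed in sign. That one was Cbx1 against the mean of the 3 classes without the filter on low counts, at 0.25 (adjusted p = 0.0260), where the median of all genes was 0.59. The 511 also hold values that changed sign, such as Cbx1 against cones, at -0.20 as reported and 0.046 without that filter. In that fit 5 members were called higher against this mean and 0 lower against Müller glia. Against cones, 3438 genes were called with DESeq2 and 2050 after thinning, against 5568 as reported. Thinning left 2209 genes called against bipolar cells, 2011 against Müller glia and 2212 against the mean, with 1 member lower against bipolar cells, and it tests fewer genes, Lbr and Lmnb2 not among them. The share of called genes that were higher in rods was 49.8, 45.3, 44.0 and 49.97% against cones, bipolar cells, Müller glia and their mean as reported, 35.9, 37.4, 34.4 and 35.5% with DESeq2, 66.2, 57.0, 56.4 and 70.5% without the filter and 54.3, 47.7, 49.9 and 61.3% after thinning. The cause of these shifts was not tested. With no replicate block, 5329, 6288, 5820 and 6472 genes were called in that order, and the block changed no call of a member. With 1 library left out there is no test, and the Lmnb1 difference from the mean was 1.31 in the short-wavelength library alone and 2.18 in the white-light library alone, that of Lmnb2 0.45 in the short-wavelength library alone and 2.58 in the white-light library alone. For light, without the limit on rod-marker share 1 member was called lower in cones and 1 in bipolar cells, with 0 higher there. After thinning 0 members were called higher in bipolar cells and 0 in Müller glia, and the Hmgb2 dispersion index was 1.09 and 1.10. Depth limits Lmna in every class, and Lbr, Lmnb1 and Lmnb2 in white-light bipolar cells and Müller glia.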
